A study of Saccharomyces cerevisiae with 12 samples.

Results

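Divergent promoter regions are the stretches between a left gene read from the Crick strand and a right gene read from the Watson strand, so that both genes are transcribed outward and the shared stretch lies upstream of both. They were chosen by the systematic names of the flanking genes in tables of 4532 intergenic regions of Saccharomyces cerevisiae. Names gave 1163 such regions, of which 60 lay within 30000 bp of a chromosome end and were left out, so that 1103 of the 4532 regions were described. No measured value entered that choice. By the same names, the remaining regions were 2092 tandem regions, upstream of 1 flanking gene, 1104 convergent regions, downstream of both, and 233 regions near chromosome ends. A region was called convergent where neither name matched the divergent rule, and tandem where 1 did. Some regions skip systematic names, such as SNP1-VHR1, from YIL061C to YIL056W over 4434 bp. Long ones can therefore hold other reading frames, and gene starts inside a region were not looked for.

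Insertions were mapped by calling cards: a transcription factor fused to Sir4 steers the retrotransposon Ty5, and each insertion (hop) marks a place near which the fusion was present. There were 12 libraries, 1 for each of 12 groups, from cells kept on galactose for 3 days, on rich medium for 2 days and on selective plates for 3 days, each begun from a single clone. All strains lacked SIR4. CBF1 was deleted as well for the libraries of Cbf1, Cbf1 bHLH-ZIP, Cbf1 bHLH-ZIP (Tye7 basic), Cbf1 bHLH, NPAS2 bHLH with Cbf1 ZIP and NPAS2 bHLH. The Tye7 library came from a strain without TYE7. In TEF1p-Tye7 gcr2D, where the TEF1 promoter drives Tye7, GCR2 was missing. TEF1p-Tye7, Gcr1, Gcr2 and Cst6 carried the SIR4 deletion only. The strain was BY4742 for Cbf1 bHLH-ZIP (Tye7 basic) and BY4741 for Cbf1 bHLH-ZIP, so effects of strain and of basic region cannot be told apart there. With 1 library a group, no difference has a replicate check, and each test compares libraries, not conditions.

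As background, Cbf1 and Tye7 are basic helix-loop-helix (bHLH) factors with a leucine zipper (ZIP), and Cbf1 is known for genes of sulfate assimilation and methionine. Gcr1 and Gcr2 are activators of glycolytic genes, a role Tye7 shares. Cst6 is a basic zipper factor known for NCE103, the carbonic anhydrase gene, and NPAS2 is a mammalian circadian bHLH factor. In yeast, a divergent region can hold sites for either gene or for both, and well-known examples are the histone gene pairs and GAL10-GAL1.

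The libraries held 3341 to 54385 insertions, and 61.8% to 78.1% of them lay in the 4532 regions. All shares below are percentages of a library's intergenic insertions. Each library has a deposited background set, of 66271 intergenic insertions for 9 libraries and of 53808 for Gcr1, Gcr2 and Cst6. Libraries of 1 kind therefore share 1 background. Intervals are exact, at 95%, and cover counting error only. Most lists of insertions are made of several sorted blocks, called runs here, 1 to 6 a library, which the labels do not name and which are no replicates. A position can be listed more than once in a library, and distinct positions made up 73.5% (Cbf1) to 99.9% (NPAS2 bHLH) of the entries. Inside the deleted CBF1 gene, the 6 libraries with that deletion held 0 insertions apart from 2 in Cbf1, and inside the deleted GCR2 gene TEF1p-Tye7 gcr2D held 0. These counts cannot tell a deleted gene from an intact one. With CBF1 intact, Gcr1, Gcr2, Cst6 and TEF1p-Tye7 also held 0 there and Tye7 2. With GCR2 intact, Tye7 and TEF1p-Tye7 held 0 in that gene. Inside SIR4, deleted in all strains, Gcr1 and Cbf1 bHLH held 1 insertion each.

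Divergent regions took the largest part of the insertions of Cbf1 and its zipper-bearing forms, and also of Cst6, and took a smaller part than in the background in Gcr1 and TEF1p-Tye7. Cbf1 placed 51.5% (50.9% to 52.1%) of its intergenic insertions in divergent regions, against 37.2% in its background set, a ratio of 1.38 (1.36 to 1.41). Cbf1 bHLH-ZIP reached 54.9% and Cbf1 bHLH-ZIP (Tye7 basic) 56.0%, ratios of 1.47 (1.43 to 1.52) and 1.51 (1.46 to 1.56) to the same background. Cst6 placed 48.1% there, against 37.7% in its background, a ratio of 1.28 (1.25 to 1.30). Between runs the divergent share ran from 50.2% to 53.4% in Cbf1 and from 46.3% to 53.0% in Cst6, so every run of both exceeded its background.

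The other libraries stood nearer to the background. Cbf1 bHLH, which lacks the zipper, had 40.5% in divergent regions, a ratio of 1.09 (1.06 to 1.11). Ratios whose interval held 1 were those of Tye7 at 0.992 (0.964 to 1.02), Gcr2 at 0.990 (0.966 to 1.01), NPAS2 bHLH at 0.998 (0.933 to 1.07), NPAS2 bHLH with Cbf1 ZIP at 1.03 (0.966 to 1.09) and TEF1p-Tye7 gcr2D at 0.966 (0.928 to 1.01). Gcr1 had 31.4%, a ratio of 0.834 (0.808 to 0.859), and TEF1p-Tye7 had 31.8%, a ratio of 0.854 (0.819 to 0.890). The last 2 values depended on the treatment of few regions and of repeated positions: without the 10 fullest regions of any class the ratio was 0.983 in Gcr1 and 1.00 in TEF1p-Tye7, without all regions called bound it was 1.11 and 1.03, and with positions within 5 bp merged it was 1.05 and 1.01. The value of NPAS2 bHLH with Cbf1 ZIP moved as well, to 1.23 without the 10 fullest regions, 1.21 with merged positions and 0.862 when at least 5 reads were required for an insertion. The excess of Cbf1, its zipper-bearing forms and Cst6 depended on them too. It was smaller without the 10 fullest regions and with merged positions, with values given in the section on processing. Leaving out bound regions gave 1.05 in Cbf1 and 1.03 in Cst6.

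Set against tandem regions, the odds of a divergent insertion were 1.72 times (1.67 to 1.77) those of the background in Cbf1 and 1.65 times (1.60 to 1.70) in Cst6. They were 1.98 times (1.88 to 2.08) in Cbf1 bHLH-ZIP (Tye7 basic) and 0.772 times (0.743 to 0.803) in Gcr1. In convergent regions, which by name have no flanking gene start, 3.30% of Cbf1 insertions lay, against 8.56% of the background. Cst6 had 9.73%, against 7.95%. Cst6 was the only library with a convergent share above its background.

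**Figure D1:**
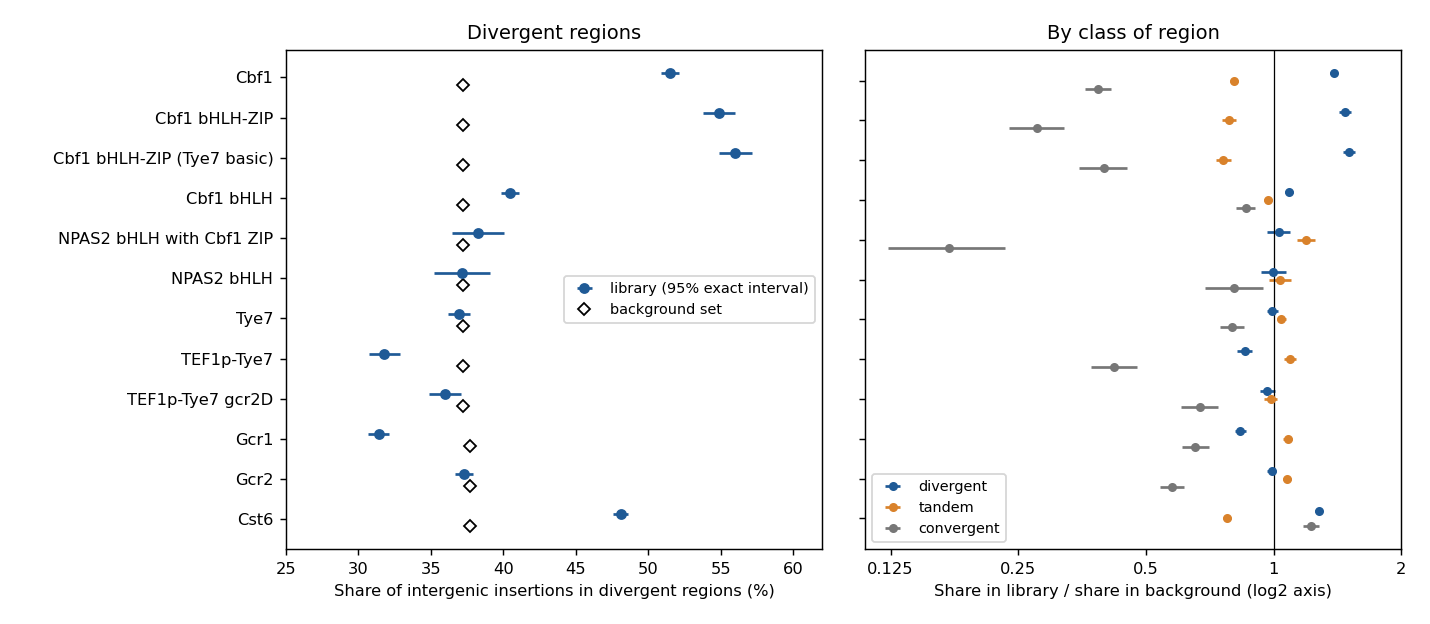
Left, the share of intergenic insertions (%) in divergent regions in each library (filled points, 95% exact intervals) and in its background set (open diamonds). Right, the share in the library over the share in the background on a log2 axis for divergent, tandem and convergent regions, where the Cbf1 forms with a zipper and Cst6 lie to the right of 1 for divergent regions, at 1.28 to 1.51.

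Divergent regions had a median length of 610 bp (39 to 4858 bp), against 459 bp for tandem regions, 263 bp for convergent regions and 733 bp for regions near chromosome ends. They make up 24.3% of the regions and 27.4% of the region bases. Among regions from 600 to under 1000 bp the divergent ones (269 regions) held 2.36 times (2.28 to 2.44) their background share in Cbf1, while the tandem ones (286 regions) held 1.22 times (1.17 to 1.28). The corresponding ratios were 1.07 (1.02 to 1.11) and 0.780 (0.745 to 0.817) in Cst6, and 0.793 (0.752 to 0.835) and 1.47 (1.40 to 1.53) in Gcr2. So at this length, summed over all regions of a class, divergent regions had the higher ratio in Cbf1 and Cst6 and tandem regions in Gcr2. In Cbf1 and Cst6 the divergent sums leaned on few regions. Of the 27141 intergenic insertions of Cbf1 22.8% lay in divergent regions of this length. IDH1-NCE103 held 1099 of them, GNP1-SMT3 688 and LAC1-CAP1 513. Of the 37782 intergenic insertions of Cst6 10.4% lay there, 758 of them in MAM3-GPD2 and 512 in IDH1-NCE103. The order of the classes without such full regions was not computed.

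Length also divided the divergent regions themselves. The 248 shorter than 300 bp held 0.516% of Cbf1 insertions, against 1.96% of the background, a ratio of 0.264 (0.220 to 0.314), and 0.490% of Cst6 insertions, against 2.18%. Cbf1 had its highest ratio from 600 to under 1000 bp and only 0.643 (0.610 to 0.678) in the 118 regions of 2000 bp and over. Cst6 had 1.77 (1.71 to 1.83) from 1000 to under 2000 bp and 1.57 (1.51 to 1.63) at 2000 bp and over. Its highest ratio thus lay at longer regions than that of Cbf1, but these sums leaned on few regions. The first range held 19.6% of the 37782 Cst6 intergenic insertions, 1352 of them in ACC1-TIM23 and 1306 in COT1-FAA1. The second held 15.6%, with 1246 insertions in RHO5-RPS3. Cst6 ratios without these regions were not computed. Gcr2 and Tye7 reached 1.47 (1.41 to 1.53) and 1.43 (1.37 to 1.50) from 1000 to under 2000 bp. That range held 16.3% of the 25378 Gcr2 and 15.8% of the 16000 Tye7 intergenic insertions. Much of that came from ADH1-PHM7, PUP2-ENO1 and TDH2-MET3, described below. They held 799, 634 and 465 insertions in Gcr2, and 451, 261 and 333 in Tye7. Gcr2 and Tye7 ratios of this range without these regions were not computed, and the part of length in them was not tested.

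Bound regions were those with 5 insertions or more whose deposited Poisson p-value stayed below 0.01 after Benjamini-Hochberg adjustment over the 4532 regions of a library. In Cbf1, 81 divergent regions were bound, 7.34% of them, where 3.91% of all regions were. Cst6 bound 62, or 5.62%, beside 3.57% of all regions. For the other libraries, the percent of divergent regions is followed in brackets by that of all regions. Cbf1 bHLH-ZIP bound 47, or 4.26% (2.05%), Cbf1 bHLH-ZIP (Tye7 basic) 36, or 3.26% (1.68%), and Cbf1 bHLH 48, or 4.35% (2.18%). Gcr2 bound 23, or 2.09% (1.74%), Gcr1 17, or 1.54% (1.41%), and Tye7 6, or 0.544% (0.375%). TEF1p-Tye7 bound 8, or 0.725% (0.552%), and TEF1p-Tye7 gcr2D 19, or 1.72% (0.971%). NPAS2 bHLH with Cbf1 ZIP bound 23, or 2.09% (1.04%), and NPAS2 bHLH 0 (0.0221%, which is 1 region).

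Because a divergent region lies between the starts of a pair of genes, the count was also set against the number of flanking gene starts. Any starts inside a region were not counted. Per 100 starts, Cbf1 had 3.67 bound divergent regions and 3.82 bound tandem ones, and Cst6 had 2.81 and 3.59. In Gcr1 the values were 0.771 and 1.72. They were 2.13 and 1.82 in Cbf1 bHLH-ZIP and 2.18 and 2.01 in Cbf1 bHLH, so the order of the classes per gene start differed between libraries. Over the 12 libraries 166 of 1103 divergent regions (15.0%) were bound in at least 1, beside 10.0% of all regions, 226 of 2092 tandem and 31 of 1104 convergent regions. The remaining 937 divergent regions were bound in none.

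The divergent insertions of several libraries were held by few regions. The fullest regions that together held 50% of the divergent insertions numbered 17 in Cbf1, 12 in Cst6, 10 in Cbf1 bHLH-ZIP, 8 in Cbf1 bHLH-ZIP (Tye7 basic) and 7 in NPAS2 bHLH with Cbf1 ZIP, against 176 in the larger background set and 170 in the smaller. In Cbf1 bHLH 124 regions were needed, and in NPAS2 bHLH 97. These numbers were not adjusted for depth, and NPAS2 bHLH, with 0 bound divergent regions, had 897 divergent insertions, against 24660 in its background. The 81 bound divergent regions of Cbf1 held 39.4% of its intergenic insertions, against 4.55% of the background, and the 62 of Cst6 held 37.3%, against 5.07%.

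The rule on distance from chromosome ends bears on the ratios above: with the regions near ends included, the divergent share over background was 1.01 in TEF1p-Tye7 (0.854 without them), 1.10 in TEF1p-Tye7 gcr2D (0.966) and 0.932 in Gcr1 (0.834). Just inside the limit lay GUD1-PHO13, at 30453 bp from the first base, with shares of 0% to 0.0375% over the libraries. Just outside lay CCA1-RPH1, at 29965 bp and up to 0.0828%, and NDI1-NGL3, at 29806 bp, which was bound in 4 libraries with a share of up to 1.74%.

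TDH2-MET3 (chromosome 10, 454674 to 456232, 1559 bp) was bound in 10 of the 12 libraries, the most of any divergent region. TDH2 encodes a glyceraldehyde-3-phosphate dehydrogenase of glycolysis, and MET3 encodes ATP sulfurylase, the first enzyme of sulfate assimilation. Its share was 1.79% in Cbf1, 2.98% in Cbf1 bHLH-ZIP, 3.24% in Cbf1 bHLH-ZIP (Tye7 basic), 0.623% in Cbf1 bHLH, 2.08% in Tye7, 4.02% in TEF1p-Tye7, 1.25% in Gcr1 and 1.83% in Gcr2. It was 0.595% in NPAS2 bHLH with Cbf1 ZIP and 0.184% in TEF1p-Tye7 gcr2D. The region was not bound in NPAS2 bHLH, at 0.124% on 3 insertions, or in Cst6, at 0.0238%, where the background sets held 0.0483% and 0.0539%. The libraries of the glycolytic factors and of the Cbf1 forms thus shared the region, and their insertions lay on different sides of it.

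Within TDH2-MET3, insertions of the glycolytic factors lay near TDH2. Their median distance from the TDH2 start was 308 bp in Tye7 (333 insertions), 280 bp in TEF1p-Tye7 (306), 364 bp in Gcr1 (209) and 368 bp in Gcr2 (465), and 93.8% to 99.0% lay on the TDH2 side of the midpoint. The Cbf1 library had its median at 1139 bp, Cbf1 bHLH-ZIP at 1169 bp, Cbf1 bHLH-ZIP (Tye7 basic) at 1209 bp and Cbf1 bHLH at 1162 bp, on the MET3 side of the midpoint. The Cbf1 insertions were divided, with 61.8% nearer MET3 and 38.2% nearer TDH2. Run medians of Cbf1 ran from 1114 to 1217.5 bp and those of Tye7 from 283 to 324 bp, so no run of one overlapped a run of the other. Insertions of NPAS2 bHLH with Cbf1 ZIP had a median of 278 bp, on the TDH2 side, although only 17 were counted.

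**Figure D2:**
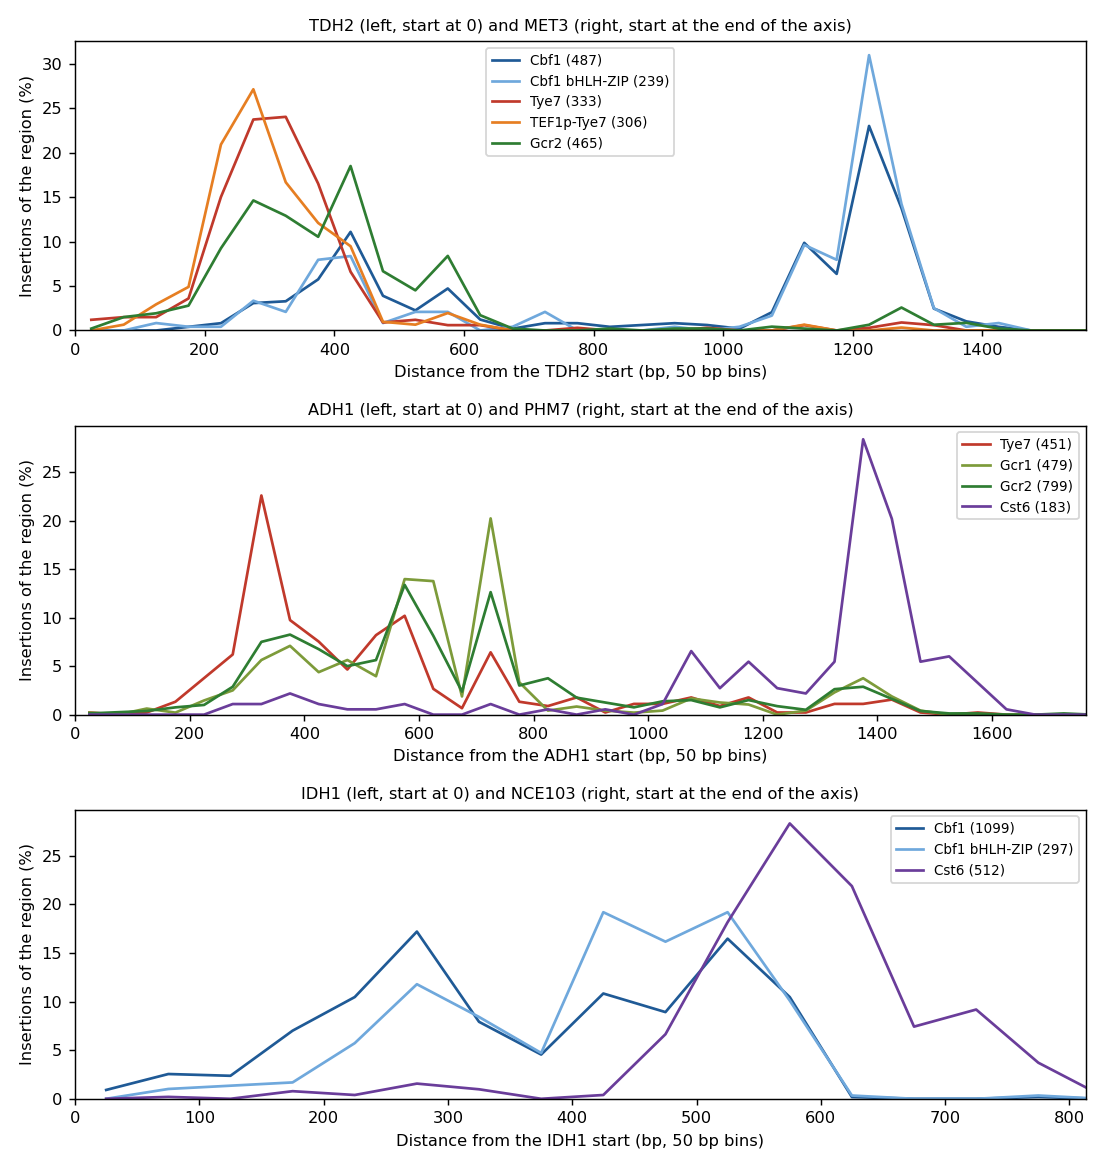
Insertions along 3 divergent regions, as percent of the library's insertions in that region per 50 bp bin, by distance (bp) from the start of the left gene, with the number of insertions in the legend. In TDH2-MET3 the Tye7 and Gcr2 lines peak near TDH2 and those of the Cbf1 forms near MET3, in ADH1-PHM7 the Cst6 line peaks on the PHM7 side, and in IDH1-NCE103 the Cst6 line lies closer to NCE103 than those of the Cbf1 forms.

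ADH1-PHM7 (chromosome 15, 160594 to 162356, 1763 bp) showed the same kind of division between glycolytic factors and Cst6. ADH1 encodes the main alcohol dehydrogenase of fermentation, and PHM7 a membrane protein gene of the phosphate response. Its share was 2.82% in Tye7, 2.88% in Gcr1, 3.15% in Gcr2, 0.683% in TEF1p-Tye7 and 0.484% in Cst6, all bound, while the background sets held 0.0920% and 0.143%. The median lay 439 bp from the ADH1 start in Tye7, 617 bp in Gcr1 and 596 bp in Gcr2, but 1376 bp in Cst6, of whose 183 insertions 90.7% lay on the PHM7 side of the midpoint. The level was uneven between runs. In Gcr1 it was 0.0260%, 3.89%, 3.84% and 3.32%, in Gcr2 4.31%, 0.0472% and 3.86%, and in TEF1p-Tye7 0.151%, 1.61% and 0.218%. In Tye7 the 6 runs ranged from 2.58% to 3.30%. In Cst6 the 3 runs held 0.0706%, 0.622% and 0.561%, the lowest of them on 5 insertions and below the 0.143% of its background. One run of Gcr1, one of Gcr2 and one of Cst6 thus lacked a signal that the other runs of the same library held, and the part of runs in this result was not tested.

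PUP2-ENO1 (chromosome 7, 999145 to 1000932, 1788 bp) was the fullest divergent region in TEF1p-Tye7, at 5.09%, and in Gcr1, at 3.46%. ENO1 encodes an enolase and PUP2 a proteasome subunit. Its share was 1.63% in Tye7, 2.50% in Gcr2 and 0.711% in TEF1p-Tye7 gcr2D, and 0.203% in Cbf1, which did not pass as bound, beside 0.174% in the background. Between runs it stayed within 2.91% to 3.87% in Gcr1 and 4.94% to 5.34% in TEF1p-Tye7. Insertions lay on the ENO1 side in 96.1% of cases in TEF1p-Tye7 and 95.4% in Tye7.

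IDH1-NCE103 (chromosome 14, 559003 to 559815, 813 bp) was the fullest divergent region in Cbf1, at 4.05% on 1099 insertions, and in Cbf1 bHLH-ZIP (Tye7 basic), at 5.36%. IDH1 encodes a subunit of isocitrate dehydrogenase of the citric acid cycle. The share was 3.70% in Cbf1 bHLH-ZIP, 0.354% in Cbf1 bHLH and 1.36% in Cst6, and 0% to 0.0660% in the other 7 libraries, beside 0.0483% and 0.0595% in the background sets. In Cst6 the runs ranged from 0.744% to 3.84%, wider than the 3.65% to 4.76% of Cbf1. Median distances from the IDH1 start were 363 bp in Cbf1, 442 bp in Cbf1 bHLH-ZIP and 583 bp in Cst6, and 96.1% of Cst6 insertions lay on the NCE103 side of the midpoint.

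The other regions led by Cbf1 and its forms joined genes of several roles. MET5-IML1, next to the sulfite reductase gene MET5, held 3.05% in Cbf1, 2.72% in Cbf1 bHLH-ZIP, 1.88% in Cbf1 bHLH-ZIP (Tye7 basic) and 0.156% in Cbf1 bHLH, and at most 0.0395% in the other 8 libraries. GNP1-SMT3, between a glutamine permease gene and the SUMO gene, held 2.53%, 4.35%, 2.35% and 0.315% in the same 4 libraries, and 1.78% in NPAS2 bHLH with Cbf1 ZIP. MET6-IES5, next to the methionine synthase gene MET6, held 1.41%, 2.96%, 4.62% and 0.335%. All 4 Cbf1 libraries were bound at each of these, and Cbf1 bHLH was the lowest of them every time. LAC1-CAP1, next to a ceramide synthase gene, held 1.89% in Cbf1 and 4.15% in Cbf1 bHLH-ZIP. ATP7-PUT3, next to an ATP synthase subunit gene, held 1.70% in Cbf1 and 4.58% in Cbf1 bHLH-ZIP (Tye7 basic), while 6 of the 8 libraries other than the Cbf1 forms had 0 insertions there.

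The leading regions of Cst6 were mostly others than those of Cbf1 and of the glycolytic factors. ACC1-TIM23, next to the gene of acetyl-CoA carboxylase, held 3.58% in Cst6 and 0.0180% to 0.125% elsewhere. COT1-FAA1, next to a fatty acyl-CoA synthetase gene, held 3.46% in Cst6, against at most 0.207% elsewhere. RHO5-RPS3, next to a ribosomal protein gene, held 3.30% in Cst6 and 0.566% in TEF1p-Tye7 gcr2D, the only other library in which it was bound. MAM3-GPD2, next to a glycerol-3-phosphate dehydrogenase gene, held 2.01% in Cst6 and 0.406% to 0.856% in Tye7, TEF1p-Tye7, TEF1p-Tye7 gcr2D and Gcr2, and it was bound in all 5. Run by run Cst6 ranged from 2.71% to 6.01% at ACC1-TIM23 and from 3.20% to 3.82% at COT1-FAA1, above all other libraries in either case.

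**Figure D3:**
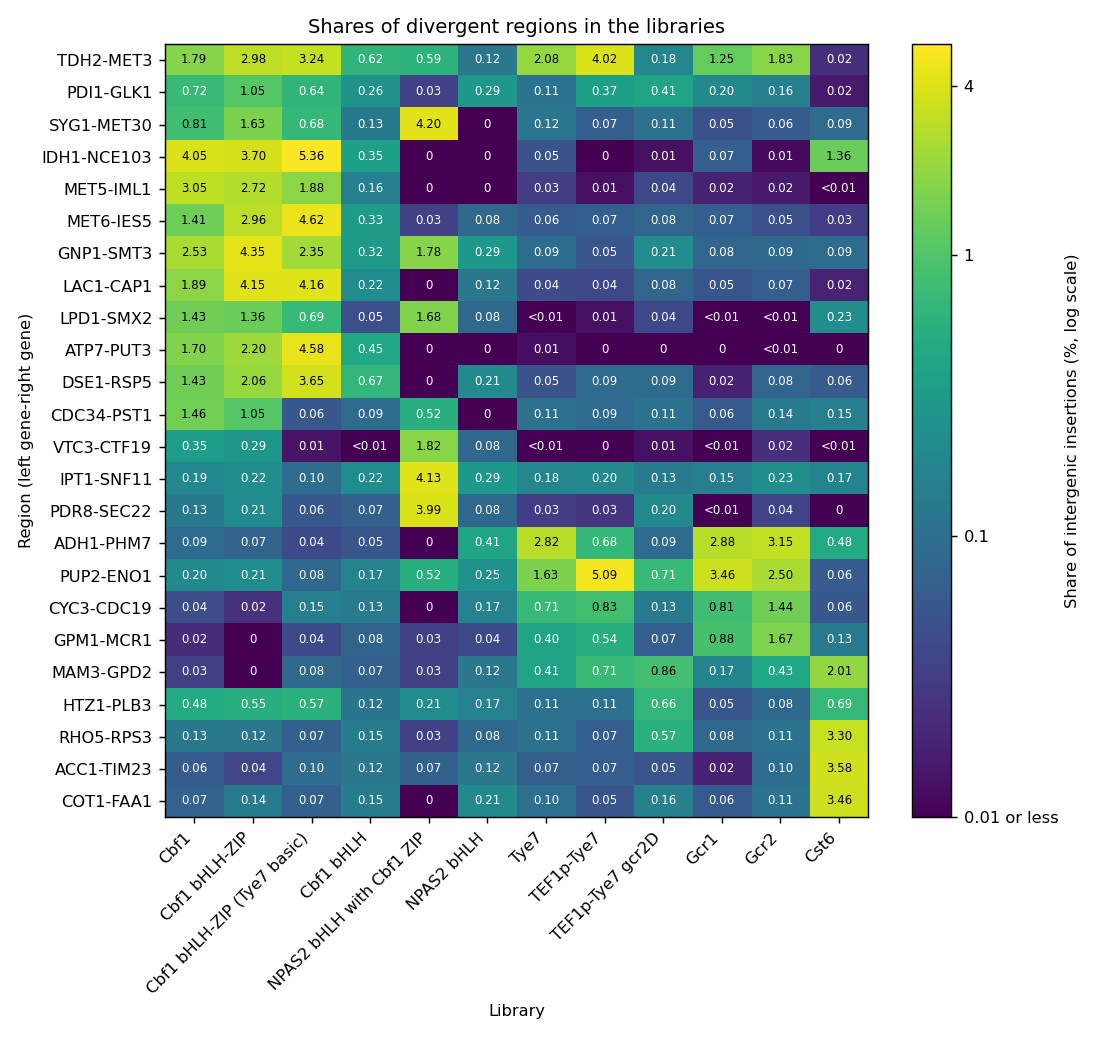
Share of intergenic insertions (%, log colour scale, value in each cell) of 24 named divergent regions (rows) in the 12 libraries (columns). The Cbf1 forms share the upper rows, the glycolytic factors the rows from ADH1-PHM7 to GPM1-MCR1, and Cst6 the lowest 3 rows at 3.30% to 3.58%. MAM3-GPD2 is highest in Cst6, with smaller shares in Gcr2 and the Tye7 libraries.

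Of 13 divergent regions next to genes of sulfate assimilation and methionine, 9 were bound in Cbf1, 8 in Cbf1 bHLH-ZIP, 7 in Cbf1 bHLH, 6 in Cbf1 bHLH-ZIP (Tye7 basic) and 4 in NPAS2 bHLH with Cbf1 ZIP. In Tye7, Gcr1, Gcr2, TEF1p-Tye7 and TEF1p-Tye7 gcr2D 1 was bound, TDH2-MET3, which also belongs to the glycolysis list below. In Cst6 1 was bound, SYG1-MET30. The 13 regions held 8.69% of Cbf1 insertions, against 0.635% of the background, and their median log2 ratio to background was 2.16 in Cbf1, where that of all regions was -0.71. Of 11 regions next to genes of glycolysis and ethanol fermentation, 7 were bound in Gcr1, Gcr2 and TEF1p-Tye7 each, 5 in Tye7 and 4 in TEF1p-Tye7 gcr2D. Cbf1 also had 4 of the 11 bound, and the list held 3.42% of its insertions, against 1.10% of the background. Cst6 and Cbf1 bHLH-ZIP (Tye7 basic) had 3 bound each, and Cbf1 bHLH-ZIP and Cbf1 bHLH 2 each. The 11 regions held 11.9% of Gcr2 insertions, against 1.29% of the background, and the median log2 ratio was 2.62, with -0.50 over all regions. In TEF1p-Tye7 gcr2D they held 2.58%, against 1.10% of the background.

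Of 72 regions next to ribosomal protein genes, 5 were bound in Cbf1 and 4 in Cst6, close to the 7.34% and 5.62% of all divergent regions in these libraries, and 0 to 2 were bound in the other libraries. The list held 1.96% of Cbf1 insertions, against 3.64% of the background, and 5.65% of Cst6 insertions, against 3.50%, of which RHO5-RPS3 alone gave 3.30%. All 5 regions with a ribosomal protein gene on both sides were unbound in every library, as were 937 of all 1103 divergent regions. Of 13 regions next to genes of the respiratory chain and ATP synthase, 7 were bound in at least 1 library, of 9 next to citric acid cycle genes 4, and of 11 next to phosphate genes 4, where 15.0% of all divergent regions and 10.0% of all regions were. In Cbf1, 2, 3 and 3 regions of these lists were bound, where 7.34% of all divergent regions were. COX9-IDP1, with a cytochrome oxidase gene and an isocitrate dehydrogenase gene, was bound in TEF1p-Tye7 gcr2D, on 10 insertions.

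Textbook divergent pairs mostly carried few insertions. GAL10-GAL1, the region of the galactose genes switched on in these cultures, held at most 0.0355%, in Gcr2, against 0.0279% and 0.0317% in the background sets, and was bound in no library. Of the 4 histone pairs HTA2-HTB2, HHF1-HHT1 and HTB1-HTA1 were unbound in every library. HHT2-HHF2, which encodes histones H3 and H4, was bound in Cbf1 at 0.221%, Cbf1 bHLH-ZIP at 0.187%, Cbf1 bHLH-ZIP (Tye7 basic) at 0.235% and Cst6 at 0.220%. SNO1-SNZ1, a vitamin B6 gene pair, was bound in Cst6 at 0.275% on 104 insertions. DAL1-DAL4 lies within 30000 bp of a chromosome end, and a region MRM1-HIS3 was not analysed here.

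Insertions were sparse in the first bases upstream of a gene. Within 100 bp of the nearer start, the share of divergent insertions was 0.24 to 0.48 times the share of bases in all 12 libraries. The Cbf1 forms peaked at 201 to 300 bp, with 2.35 times the share of bases in Cbf1 and 2.68 times in Cbf1 bHLH-ZIP (Tye7 basic). Gcr1, Gcr2 and Cst6 peaked farther out, at 401 to 600 bp, with 2.25, 2.03 and 2.34 times. The median distance was 280 bp (278 to 283) in Cbf1, 271 bp (266 to 275) in Cbf1 bHLH-ZIP (Tye7 basic), 318 bp (312 to 324) in Tye7, 370 bp (365 to 376) in Gcr2, 413 bp (406 to 422) in Gcr1 and 452 bp (447 to 456) in Cst6, and 276 bp over all bases of the regions. No background positions were used, so these distances are set against bases alone, and the fullest regions weigh on them: without its 10 fullest regions the median of Cst6 was 377 bp.

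**Figure D4:**
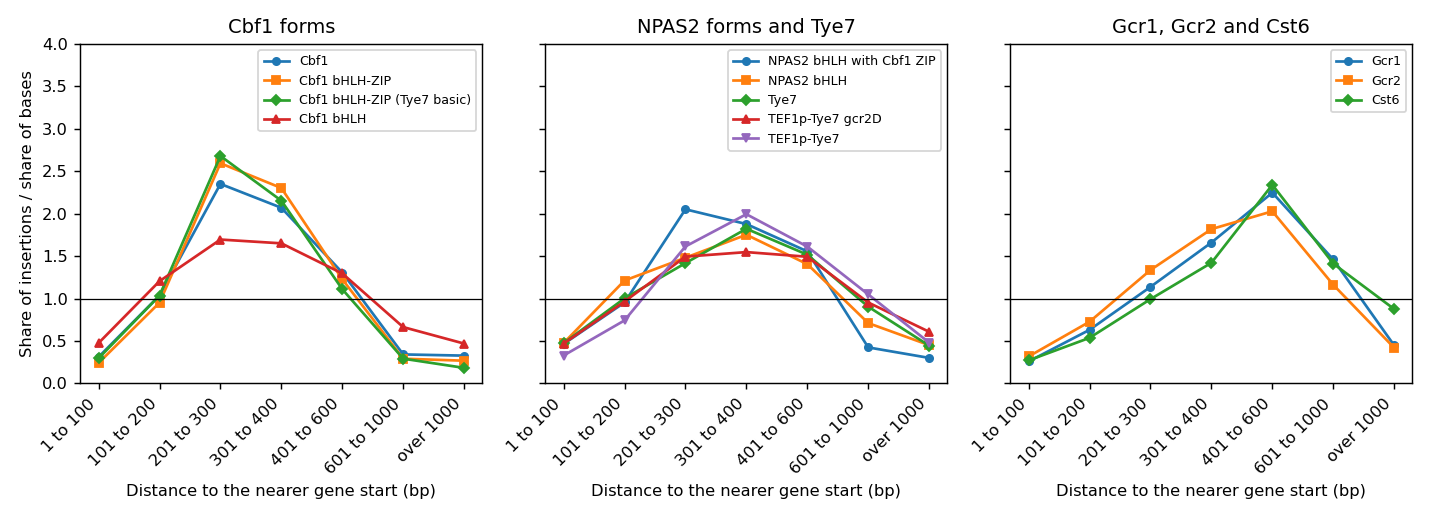
Share of the insertions in divergent regions over the share of their bases, by distance (bp) to the nearer of the flanking gene starts, for the Cbf1 forms (left), NPAS2 forms and Tye7 (middle) and Gcr1, Gcr2 and Cst6 (right). The line at 1 marks an even spread, the Cbf1 forms are highest at 201 to 300 bp, and Gcr1, Gcr2 and Cst6 are highest at 401 to 600 bp.

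Where a region was bound in a pair of libraries, their median positions could be compared. Over 43 regions bound in both Cbf1 bHLH-ZIP and Cbf1, the medians differed by 13 bp at the middle and by 50 bp or less in 37. Gcr1 and Gcr2 differed by 14 bp over 13 regions. Cst6 and Cbf1 differed by 161 bp over 13 regions and by more than 50 bp in each, with the nearest pair 60 bp apart. Median positions were thus close in the first 2 pairs and apart for Cst6 and Cbf1, in regions bound in both.

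Pairs of libraries were set against each other with Fisher's exact test (two-sided), run for every region that held 10 insertions or more in both together and adjusted by Benjamini-Hochberg. Calls needed an adjusted p below 0.05 and shares that differed 2-fold or more after 1 insertion was added. Since shares sum to 1, a library with strong peaks has lower shares elsewhere. Counts are therefore given also after scaling on regions bound in neither library, which moved log2 ratios by the amount stated, and after merging positions within 5 bp.

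In Tye7 against Cbf1, most regions of the sulfate and methionine list were lower, and the glycolysis list was mixed. Of 323 divergent regions tested, 87 were higher and 75 lower in Tye7, where 27.0% of all tested regions were higher and 19.9% lower. Scaling on regions bound in neither moved log2 ratios by -1.17 and left 14 higher and 101 lower. ADH1-PHM7 was 30.6-fold (20.5 to 47.8) higher in Tye7 (2.82%) than in Cbf1 (0.0921%), with an adjusted Fisher p of 8.6e-158. GPM1-MCR1, next to the phosphoglycerate mutase gene, was 18.1-fold (7.87 to 51.1) higher, at 0.400% in Tye7 and 0.0221% in Cbf1. HHF1-HHT1 held 11 insertions in Tye7 and 0 in Cbf1, at least 6.22-fold higher against a floor of 3 insertions. LPD1-SMX2, next to the dihydrolipoamide dehydrogenase gene, held 1 insertion in Tye7 and 387 in Cbf1, a ratio of 0.00438 (0.000111 to 0.0246). Of 11 tested sulfate and methionine regions 7 were lower in Tye7 and 1 higher, with a median log2 ratio of -2.66, against 0.76 over all tested regions. Of 10 tested glycolysis regions 4 were higher and 1, PDI1-GLK1, lower, and their median log2 ratio of 0.39 lay below that of all tested regions. TDH2-MET3, at 2.08% in Tye7 and 1.79% in Cbf1, was not called. With merged positions 11 divergent regions were higher and 47 lower, the log2 ratio of ADH1-PHM7 was 1.11 where it had been 4.88, and PUP2-ENO1 and PDI1-GLK1 were no longer called. When 5 reads were required HHF1-HHT1 was not called.

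Few divergent regions differed between TEF1p-Tye7 and Tye7. Of 195 divergent regions tested 2 were higher and 3 lower, where 1.97% of all tested regions were higher and 0.656% lower. Scaling on regions bound in neither moved log2 ratios by 0.63 and gave 10 higher and 1 lower. PUP2-ENO1 was 3.12-fold (2.66 to 3.66) higher in TEF1p-Tye7 (5.09%) than in Tye7 (1.63%), with an adjusted Fisher p of 9.4e-46. PDI1-GLK1, next to the glucokinase gene, was 3.27-fold (1.75 to 6.28) higher. ADH1-PHM7 was lower, at 0.683% in TEF1p-Tye7 and 2.82% in Tye7, and each of the 3 runs of TEF1p-Tye7 lay below each of the 6 runs of Tye7. With merged positions that difference turned round, to a log2 ratio of 0.31 in place of -2.02, PDI1-GLK1 was no longer called, and 3 regions were higher and 0 lower.

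In TEF1p-Tye7 gcr2D, which lacks GCR2, 5 glycolytic regions held smaller shares than in TEF1p-Tye7. Of 132 divergent regions tested 17 were higher and 5 lower in TEF1p-Tye7 gcr2D than in TEF1p-Tye7, where 11.9% of all tested regions were higher and 5.93% lower. All 5 that were lower adjoin glycolysis and fermentation genes, out of 10 such regions tested, and 1 of those 10, SUP45-ADH5, was higher. TDH2-MET3 held 0.184% in TEF1p-Tye7 gcr2D and 4.02% in TEF1p-Tye7, a ratio of 0.0459 (0.0248 to 0.0781) with an adjusted Fisher p of 5.5e-72. PUP2-ENO1 held 0.711% and 5.09%, a ratio of 0.140 (0.103 to 0.186). GPM1-MCR1, ADH1-PHM7 and CYC3-CDC19, the last next to the pyruvate kinase gene, had ratios of 0.122, 0.135 and 0.159. MAM3-GPD2 was not called, at 0.856% in TEF1p-Tye7 gcr2D and 0.710% in TEF1p-Tye7. Scaling on regions bound in neither moved log2 ratios by -0.61 and left 4 higher and 6 lower. With merged positions 0 were higher and 4 lower: PUP2-ENO1, GPM1-MCR1, ADH1-PHM7 and CYC3-CDC19 stayed called, while TDH2-MET3, at a log2 ratio of -1.30 where it had been -4.35, and SUP45-ADH5 did not.

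Between the bHLH-ZIP part of Cbf1 and the whole protein, few divergent regions were called. The libraries held 8028 and 27141 intergenic insertions, and a region without a call is not shown to be equal. Of 197 divergent regions tested 4 were higher and 5 lower in Cbf1 bHLH-ZIP than in Cbf1, where 1.40% of all tested regions were higher and 1.64% lower. LAC1-CAP1 was 2.19-fold (1.91 to 2.52) higher, MET6-IES5 2.11-fold (1.78 to 2.48) and SYG1-MET30, next to the gene of an F-box protein of the methionine pathway, 2.01-fold (1.61 to 2.51). SET2-ERG20 was lower, at 0.0623% in Cbf1 bHLH-ZIP and 0.273% in Cbf1. Scaling on regions bound in neither moved log2 ratios by 0.37 and gave 7 higher and 0 lower. With merged positions 10 were higher and 0 lower, and the log2 ratio of SET2-ERG20 was 0.019 in place of -1.89. When 5 reads were required SYG1-MET30 was not called.

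The fullest regions of Cbf1 bHLH-ZIP held smaller shares in Cbf1 bHLH, which lacks the zipper. Of 338 divergent regions tested 37 were higher and 30 lower in Cbf1 bHLH than in Cbf1 bHLH-ZIP, where 8.67% of all tested regions were higher and 7.06% lower. LPD1-SMX2 held 0.0467% in Cbf1 bHLH and 1.36% in Cbf1 bHLH-ZIP, a ratio of 0.0344 (0.0172 to 0.0626) with an adjusted Fisher p of 2.9e-52. VTC3-CTF19, next to a polyphosphate synthesis gene, held 2 insertions in Cbf1 bHLH and 23 in Cbf1 bHLH-ZIP, a ratio of 0.0272 (0.00311 to 0.110). LAC1-CAP1 held 0.218% and 4.15%, a ratio of 0.0526 (0.0389 to 0.0699). The ratios differed between regions: DSE1-RSP5, next to a ubiquitin ligase gene, had a ratio of 0.324 (0.260 to 0.404) and ATP7-PUT3 of 0.203 (0.159 to 0.258). The higher calls depended on the scaling, since on regions bound in neither, which moved log2 ratios by -1.52, 0 were higher and 70 lower, and with merged positions 0 were higher and 42 lower. When 5 reads were required 1 was higher and 25 lower.

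With the basic region of Tye7, 11 of 106 divergent regions tested were higher and 12 lower than in Cbf1 bHLH-ZIP, where 8.88% of all tested regions were higher and 13.1% lower. CDC34-PST1, next to the gene of a ubiquitin-conjugating enzyme, held 0.0553% in Cbf1 bHLH-ZIP (Tye7 basic) and 1.05% in Cbf1 bHLH-ZIP, a ratio of 0.0529 (0.0141 to 0.140) with an adjusted Fisher p of 5.1e-17. VTC3-CTF19 held 1 and 23 insertions, a ratio of 0.0483 (0.00117 to 0.297), and SPL2-ARO9, next to another phosphate gene, 3 and 38, a ratio of 0.0876 (0.0173 to 0.276). ATP7-PUT3 was 2.08-fold (1.72 to 2.51) higher. Of 7 tested glycolysis regions 3 were higher and 0 lower, and among them SUP45-ADH5 held 20 insertions in Cbf1 bHLH-ZIP (Tye7 basic) and 3 in Cbf1 bHLH-ZIP, a ratio of 7.40 (2.19 to 38.9). Scaling on regions bound in neither moved log2 ratios by -0.40 and gave 5 higher and 27 lower. With merged positions 0 were higher and 2 lower: CDC34-PST1 and VTC3-CTF19 stayed called, SPL2-ARO9 and SUP45-ADH5 did not, and the log2 ratio of ATP7-PUT3 was -0.058 in place of 1.05.

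NPAS2 bHLH with Cbf1 ZIP held larger shares in a set of divergent regions than NPAS2 bHLH did. Of 32 divergent regions tested 19 were higher and 2 lower in NPAS2 bHLH with Cbf1 ZIP than in NPAS2 bHLH, where 59.7% of all tested regions were higher and 4.84% lower. SYG1-MET30 held 4.20% on 120 insertions in NPAS2 bHLH with Cbf1 ZIP and 0 insertions in NPAS2 bHLH, which allows a share of up to 0.124% there, so that it was at least 33.8-fold higher. IPT1-SNF11, next to a sphingolipid synthesis gene, held 4.13% and 0.290%, a 14.2-fold (6.70 to 36.2) difference. PDR8-SEC22 held 3.99% on 114 insertions and 2 insertions, a ratio of 48.1 (13.0 to 402). IPT1-SNF11 was bound in no other library, where its share was 0.0968% to 0.290%. Only 4 of the 13 sulfate and methionine regions were tested, and all 4 were higher. A region could reach the 10 insertions needed through NPAS2 bHLH with Cbf1 ZIP alone, so this count does not bear on the list as a whole. Of the 19 regions higher with the zipper in NPAS2, 8 were among the 30 lower without it in the Cbf1 pair, which shares no library with this one: SYG1-MET30, TDH2-MET3, GNP1-SMT3, CDC34-PST1, LPD1-SMX2, PDR8-SEC22, TYE7-REV1 and VTC3-CTF19. In the Cbf1 pair 8.88% of the 338 divergent regions tested were lower. Both pairs call only regions with enough insertions, and whether the overlap exceeds what that alone gives was not tested. ADH1-PHM7 was lower, with 0 insertions in NPAS2 bHLH with Cbf1 ZIP and 10 in NPAS2 bHLH. Scaling on regions bound in neither moved log2 ratios by 2.09 and gave 27 higher and 0 lower, and ADH1-PHM7 was no longer called. With merged positions 21 were higher and 1 lower, and GNP1-SMT3 was no longer called. When 5 reads were required 7 were higher and 0 lower, and CDC34-PST1, LPD1-SMX2, TDH2-MET3 and ADH1-PHM7 were not called.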

How the data were processed

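For each of 12 libraries the authors deposited a list of insertions (chromosome, position and a count of reads) and a table of 4532 intergenic regions. Per the file headers, the deposited tables give insertion counts of a library and of a background, each also as a fraction of its total, the ratio of these fractions, and 2 p-values per region, Poisson and hypergeometric. Novoalign is named in the submitters' processing notes. No build is named in the sources used here, so coordinates are those of the files, and R64 served for names only: all 2206 gene identifiers beside divergent regions matched, 2192 with a symbol. Insertions were counted again per region and matched the deposited counts in every region.

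Shares were computed from insertions in the 4532 regions, with exact Clopper-Pearson intervals. Intervals of ratios are conditional on the sum of both counts. Bound regions rest on the authors' deposited p-value, adjusted over each library. The 7 pairs of libraries were compared by Fisher's exact test over the whole table. The test was run on simulated data with independent insertions. These lacked the repeated positions and the spread between runs of the real lists, so that check does not cover them. An insertion is an entry of a list, whatever its reads, and a position listed more than once counts each time, as in the authors' counts, so intervals and floors cover counting error only. Python 3.11.15, pandas 2.3.3, numpy 2.4.6, scipy 1.17.1 and matplotlib 3.10.9 were used. Positions are distances to the gene starts that bound a region, for libraries with at least 10 insertions in it.

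Named regions were the 3 bound divergent regions with the largest share in each library, the 3 called regions with the largest and the 3 with the smallest ratio in each pair, up to 6 bound in the most libraries, the textbook pairs, and examples from the gene lists. Regions and lists were chosen with earlier results of these data known. Alternatives merged positions within 5 bp, required 5 reads, left out the 10 fullest regions, kept regions near chromosome ends, used a stricter threshold or the other p-value, and changed the scaling.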

Additional observations from a re-analysis of the deposited data

Results flagged for a closer look

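PUT4-CIN1 was called in opposite directions where a zipper was added to NPAS2 and to Cbf1. The log2 ratio with over without the zipper was 1.41 in NPAS2, on 21 insertions in NPAS2 bHLH with Cbf1 ZIP and 6 in NPAS2 bHLH. It was -2.68 in Cbf1, on 1 insertion in Cbf1 bHLH-ZIP and 40 in Cbf1 bHLH. Each call rests on 1 library a side, and the difference between them was not tested. The Cbf1 call was lost under each of the 4 alternatives tried, and the NPAS2 call was lost when 5 reads were required.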

How the results depend on the processing

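The ratio of the divergent share to background moved under every alternative in some libraries, and the cause was not tested. Without the 10 fullest regions it was 1.24 in Cbf1, 0.983 in Gcr1, 1.03 in Gcr2, 1.07 in Cst6, 1.23 in NPAS2 bHLH with Cbf1 ZIP, 1.00 in TEF1p-Tye7, 1.08 in TEF1p-Tye7 gcr2D, 1.11 in Cbf1 bHLH-ZIP (Tye7 basic) and 1.21 in Cbf1 bHLH-ZIP. With positions within 5 bp merged, which left 34.2% (Cst6) to 96.8% (NPAS2 bHLH) of the intergenic insertions and could not be applied to the background, it was 1.10 in Cbf1, 1.05 in Gcr1, 1.06 in Gcr2, 1.04 in Cst6, 1.21 in NPAS2 bHLH with Cbf1 ZIP, 1.01 in TEF1p-Tye7, 1.06 in TEF1p-Tye7 gcr2D, 1.15 in Cbf1 bHLH-ZIP (Tye7 basic), 1.26 in Cbf1 bHLH-ZIP and 1.02 in Cbf1 bHLH. With 5 reads required it was 1.42 in Cbf1, 1.03 in Tye7, 1.34 in Cst6, 1.07 in NPAS2 bHLH, 0.862 in NPAS2 bHLH with Cbf1 ZIP, 1.64 in Cbf1 bHLH-ZIP (Tye7 basic) and 1.56 in Cbf1 bHLH-ZIP. With regions near chromosome ends it was 1.41 in Cbf1, 0.932 in Gcr1, 1.24 in Cst6, 1.01 in TEF1p-Tye7 and 1.10 in TEF1p-Tye7 gcr2D. Without bound regions, an alternative chosen after seeing the data, it was 1.05 in Cbf1, 1.11 in Gcr1, 1.09 in Gcr2, 1.03 in Cst6, 1.17 in NPAS2 bHLH with Cbf1 ZIP, 1.03 in TEF1p-Tye7, 1.07 in TEF1p-Tye7 gcr2D, 1.06 in Cbf1 bHLH-ZIP (Tye7 basic), 1.16 in Cbf1 bHLH-ZIP and 1.02 in Cbf1 bHLH. Shares of named regions with merged positions or 5 reads were also added after seeing the data.

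Counts of bound divergent regions stayed within 1.5 times under both alternatives, apart from 11 in TEF1p-Tye7 gcr2D at an adjusted p under 0.0001. Counts called between libraries with merged positions were 58 for Tye7 over Cbf1, 3 for TEF1p-Tye7 over Tye7, 4 for TEF1p-Tye7 gcr2D over TEF1p-Tye7, 42 for Cbf1 bHLH over Cbf1 bHLH-ZIP and 2 for the Tye7 basic region. Scaled outside the 10 fullest regions they were 11 for TEF1p-Tye7 gcr2D and 5 for Cbf1 bHLH-ZIP over Cbf1, and scaled on regions bound in neither 11 for TEF1p-Tye7 and 10 for TEF1p-Tye7 gcr2D. With 5 reads required they were 12 for TEF1p-Tye7 gcr2D, 4 for Cbf1 bHLH-ZIP over Cbf1, 26 for Cbf1 bHLH, 14 for the Tye7 basic region and 7 for the NPAS2 pair. Log2 ratios of called regions turned at ADH1-PHM7 in TEF1p-Tye7 over Tye7 (0.31), SET2-ERG20 in Cbf1 bHLH-ZIP over Cbf1 (0.019) and ATP7-PUT3 with the Tye7 basic region (-0.058), all with merged positions, and at SNP1-VHR1 in the NPAS2 pair (0.11) scaled on regions bound in neither.

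Median distances to the nearer start without the 10 fullest regions were 277 bp in Cbf1, 293 bp in Tye7, 380 bp in Gcr1, 333.5 bp in Gcr2, 377 bp in Cst6, 310.5 bp in NPAS2 bHLH with Cbf1 ZIP and 302 bp in TEF1p-Tye7 gcr2D. With merged positions they were 283 bp in Tye7, 336 bp in Gcr1, 308 bp in Gcr2, 337 bp in Cst6, 309 bp in NPAS2 bHLH with Cbf1 ZIP, 302 bp in TEF1p-Tye7 gcr2D, 281 bp in Cbf1 bHLH-ZIP (Tye7 basic), 290 bp in Cbf1 bHLH-ZIP and 272 bp in Cbf1 bHLH. No paired analysis was possible because each group has 1 library. The 3341 to 54385 insertions a library limit what could be called.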
